A study of Mus musculus with 32 samples.

Results

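The 6 globin genes Hba-a1, Hba-a2, Hba-x, Hbb-bs, Hbb-bt and Hbb-y were followed through single mouse eggs and 2-cell embryos, as 6 of the 54532 genes in the deposited FPKM table (reads scaled to gene length and to library depth). They were selected by symbol, and the selection was made because the FPKM of the alpha globins was higher at the late 2-cell stage and higher still in the embryos labelled Trp53 MZ-KO. The late-stage values of the members are therefore given as a description, without a test. Tests are given for the members only in eggs, between the early 2-cell groups and between early embryos and eggs.

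Each of the 32 libraries was made with SMRT-seq chemistry and Tn5 tagmentation from 1 individual metaphase II egg or embryo, a method that primes cDNA on poly(A) tails and does not mark the strand. The groups were 3 eggs labelled Trp53 KO with 3 WT eggs, 6 early 2-cell embryos labelled Trp53 MZ-KO with 8 WT ones of that stage, and 6 labelled Trp53 MZ-KO at the late 2-cell stage with 6 WT. The design text gives 6 early replicates, whereas the WT early group holds 8 samples. The early stage was taken between 28 and 32 hours after the females received hCG, the hormone that triggers ovulation, and the late stage at 48 hours, and embryos were grown in KSOM medium. The knockout allele lacks exons 2 to 10 of Trp53, the gene for the transcription factor p53, after recombination of a floxed allele by the germ cell driver Ddx4::Cre. MZ-KO embryos had a Trp53 KO mother and a Trp53 KO father, whereas the WT controls were Trp53 flox/flox, so both arms descend from the floxed line, kept on a background described as mixed Bl6/C57. The number of females behind each group is not in the labels, so the p-values reflect only how much single eggs or embryos vary, some of which may be siblings.

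Haemoglobin is a tetramer of alpha-type and beta-type globin chains that each hold a haem group and bind oxygen. The alpha-type and beta-type genes lie in separate clusters, and within each cluster some genes are used in the primitive red cells of the embryo and others in fetal and adult red cells. Balanced output of both chain types is the rule in erythroid cells, where GATA1, KLF1 and TAL1 act on the clusters, and no erythroid cell exists at the 2-cell stage. Hba-a1 and Hba-a2 encode the adult alpha chain and Hba-x the embryonic zeta chain. Hbb-bs and Hbb-bt encode adult beta chains and Hbb-y an embryonic epsilon-type chain.

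In mm10 with the GENCODE M21 annotation, the alpha-type members were on the plus strand of chromosome 11, with Hba-x (ENSMUSG00000055609) at chr11:32276400-32278116, Hba-a1 (ENSMUSG00000069919) at chr11:32283511-32284465 and Hba-a2 (ENSMUSG00000069917) at chr11:32296489-32297298. The beta-type members were on the minus strand of chromosome 7, with Hbb-bt (ENSMUSG00000073940) at chr7:103812524-103813996, Hbb-bs (ENSMUSG00000052305) at chr7:103826534-103828096 and Hbb-y (ENSMUSG00000052187) at chr7:103851749-103853216. Each is a protein-coding gene with 3 exons in its annotated main transcript, and none of the 6 overlapped another annotated gene. Hba-a1 lay 5.39 kb from Hba-x and 12 kb from Hba-a2. Trp53 is on the same chromosome, 37.3 Mb from Hba-a1.

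The sequences of the pair that carried nearly all globin reads show how far their values can be told apart. The coding sequences of Hba-a1 and Hba-a2 matched at 428 of 429 bases in the GENCODE transcripts. The single difference was C381T, written as the base in Hba-a1, the position counted from the A of the start codon, and the base in Hba-a2. It lies at position 3 of codon 127 and stands in capitals in bases 371 to 391 of each coding sequence.
Hba-a1: cctctctggaCaaattccttg
Hba-a2: cctctctggaTaaattccttg
Of all 50-base windows of the messenger RNA, 67.5% in Hba-a1 and 86.9% in Hba-a2 were also found in another member, in both cases in the other alpha copy. How the authors' counting treated reads that fit both copies is not given in the sources used here, so the split between Hba-a1 and Hba-a2 is uncertain, and their sum is given beside each. The adult beta genes Hbb-bs and Hbb-bt were as close, with 443 of 444 coding bases identical. Hba-a1 shared 68.0% of aligned coding bases with Hba-x and between 64.4% and 65.9% with the beta-type members. Hba-x and Hbb-y shared no 50-base window with another member.

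All 6 members matched a RefSeq promoter of build GRCm38.p6. The stretches before the starts of Hba-a1 and Hba-a2 were identical over 297 of the 300 bases in the table, with the RefSeq starts offset by 3 bases. The 250 bases before the RefSeq start of Hba-a2 (chr11:32296242-32296491, plus strand) are printed to show the sequence both measured copies share, with 4 kinds of motif in capitals. They are GATAA, a core of GATA factor sites, then CCAAT, which general factors bind, the KLF-type box CACCC and the TATA box TATAA.
Hba-a2 promoter: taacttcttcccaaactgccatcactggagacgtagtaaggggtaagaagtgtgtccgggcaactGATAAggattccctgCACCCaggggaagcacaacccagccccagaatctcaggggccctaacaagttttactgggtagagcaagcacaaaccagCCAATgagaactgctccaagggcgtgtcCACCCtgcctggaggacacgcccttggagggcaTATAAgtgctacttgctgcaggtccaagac
Both strands were searched, and no 2 of the printed matches overlap. Among 32851 mouse promoters of the same length, GATAA was found in 22.6%, CCAAT in 33.8%, CACCC in 52.0% and TATAA in 22.8%. For comparison, the 30 bases that run from 40 to 11 bases before the RefSeq start of each member are given on the gene's own strand, with TATAA in capitals. The GENCODE genes begin upstream of the RefSeq starts, so that of the 250 bases before the RefSeq start 161 lie inside the GENCODE gene in Hba-a1, 200 in Hba-x, 168 in Hbb-bs and 73 in Hbb-bt, against 3 in Hba-a2 and 9 in Hbb-y.
Hba-a1 (chr11:32283632-32283661, plus): cccttggagggcaTATAAgtgctacttgct
Hba-a2 (chr11:32296452-32296481, plus): ttggagggcaTATAAgtgctacttgctgca
Hba-x (chr11:32276560-32276589, plus): tgaccatgtgtaTATAAaggagacactggg
Hbb-bs (chr7:103827939-103827968, minus): agggcagagcaTATAAggtgaggtaggatc
Hbb-bt (chr7:103813934-103813963, minus): cagcattgggtaTATAAagctgagcagggt
Hbb-y (chr7:103853218-103853247, minus): tgtctgtgaagcataaaaggccaccacttc
Within 250 bases, Hbb-bs and Hbb-bt held each of the 4 motifs, as Hba-a1 and Hba-a2 did. Hba-x held no CCAAT and Hbb-y no TATAA. The presence of these motifs was thus the same in Hba-a1 and Hba-a2, measured at the late stage, and in Hbb-bs and Hbb-bt, at or near 0. Their number and positions differed, and the part of the promoters in the levels was not tested.

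The libraries held between 7.22 M and 27.6 M reads (median 18.25 M reads), recovered from the whole-read steps of the FPKM values, of which at least 99.3% per library came out within 0.1 of a whole read. In late embryos the depth ran from 10.8 M to 27.6 M reads in those labelled MZ-KO and from 16.5 M to 24.0 M reads in WT. At FPKM 1 or above there were 9013 to 9745 genes in late embryos labelled MZ-KO and 7989 to 9417 in WT late embryos. Trp53 itself was at 0.311 to 1.10 FPKM in early embryos labelled MZ-KO and at 2.60 to 9.29 in WT early embryos, and this difference passed the test (log2 difference -1.92, limma adjusted p = 0.00126). In eggs it was at 6.33 to 9.81 FPKM in those labelled Trp53 KO and at 6.16 to 10.3 in WT (adjusted p = 0.956), and in late embryos at 1.48 to 5.39 in those labelled MZ-KO and at 0.557 to 7.09 in WT (adjusted p = 0.955). The gene-level FPKM also holds exons outside the deleted stretch, so it does not measure the deletion itself, and the groups are named by their labels here. Why Trp53 separated the labels at the early stage but not in eggs or late embryos was not tested. At the early stage Trp53 reached FPKM 1 in 8 WT embryos and in 2 labelled MZ-KO, so it passed the filter through the WT embryos. Of the 8 egg and embryo markers all were found in each group, and their summed FPKM was 43.7 to 108 in late embryos labelled MZ-KO and 59.0 to 85.8 in WT late embryos.

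Hba-a1 was listed at 0 FPKM in all 3 eggs labelled Trp53 KO and in all 3 WT eggs. Hba-a2 was also at 0 in the eggs labelled Trp53 KO, and in WT eggs it had 0.112 FPKM in 1 egg, from 2 reads, and 0 in the other 2. In the eggs, 3 reads corresponded to between 0.143 and 0.233 FPKM of Hba-a1 and to between 0.169 and 0.274 FPKM of Hba-a2, the upper limit that a count of 0 allows. Hba-x, Hbb-bs, Hbb-bt and Hbb-y had no read in any egg. None of the 6 members passed the filter of FPKM 1 in at least 3 eggs, and 0.333% of the 6607 genes tested between the egg groups were called at an adjusted p below 0.05. Without that filter, Hba-a2 had an adjusted p of 0.777 (limma).

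At the early 2-cell stage, transcripts of the adult alpha globins were found in part of the embryos at low levels. Hba-a1 had 0 FPKM at the lowest, 0 at the median and 3.23 at the highest in early embryos labelled MZ-KO, against 0, 0.735 and 4.21 in WT early embryos. It was above 0 in 2 of 6 early embryos labelled MZ-KO and in 7 of 8 WT early embryos, and the ranges overlapped. Hba-a2 ran to 1.44 FPKM with a median of 0.146 in early embryos labelled MZ-KO, against 3.20 and a median of 0.666 in WT early embryos. It was above 0 in 3 of 6 and in 6 of 8 embryos of those groups, again with overlap.

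The mean of Hba-a1 was 0.678 ± 1.30 FPKM in early embryos labelled MZ-KO (SD, n = 6) and 1.17 ± 1.41 in WT early embryos (SD, n = 8), a log2(FPKM + 1) difference of -0.40. For Hba-a2 the means were 0.393 ± 0.569 and 1.07 ± 1.19 FPKM in the same groups, a difference of -0.46. Neither gene passed the filter in this comparison, where 3.28% of 7675 genes were called. With no filter the limma adjusted p was 0.687 for Hba-a1 and 0.673 for Hba-a2, so a genotype difference was not detectable at the early stage. The spread between embryos of 1 group was larger than the mean for both genes in both groups. In each group 1 embryo had the most of both genes, and the means were also taken without it, an alternative chosen after seeing the data. Without embryo 1 of those labelled MZ-KO, the means in early embryos labelled MZ-KO were 0.167 ± 0.373 FPKM of Hba-a1 and 0.184 ± 0.280 of Hba-a2 (SD, n = 5). Without WT embryo 3, the WT early means were 0.737 ± 0.751 and 0.769 ± 0.886 FPKM (SD, n = 7). Hba-x, Hbb-bs, Hbb-bt and Hbb-y had no read in any of the 14 early embryos.

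Early embryos were also set against eggs. In WT, Hba-a1 averaged 1.17 ± 1.41 FPKM in early embryos (SD, n = 8) against 0 in eggs (n = 3), a log2(FPKM + 1) difference of 0.90 (SE 0.45, 95% interval -0.08 to 1.87, limma adjusted p = 0.111). It was above 0 in 7 of the 8 WT early embryos. Hba-a2 differed by 0.80 (SE 0.44, interval -0.15 to 1.76, adjusted p = 0.141). In this comparison 51.3% of 8619 genes were called, and 2 of the 6 members, Hba-a1 and Hba-a2, passed the filter, both only through the WT early embryos, the group in which they were higher. Their p-values are therefore no independent measure of the increase. The call for Hba-a1 depended on the pseudocount, since with 0.1 in place of 1 the difference was 2.80 with an adjusted p of 0.0423, in a range of 0.0423 to 0.260 over the 14 alternatives. Between early embryos labelled MZ-KO and eggs labelled Trp53 KO, where 49.2% of 8305 genes were called, no member passed the filter, and without it the adjusted p was 0.580 for Hba-a1 and 0.471 for Hba-a2.

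**Figure D1:**
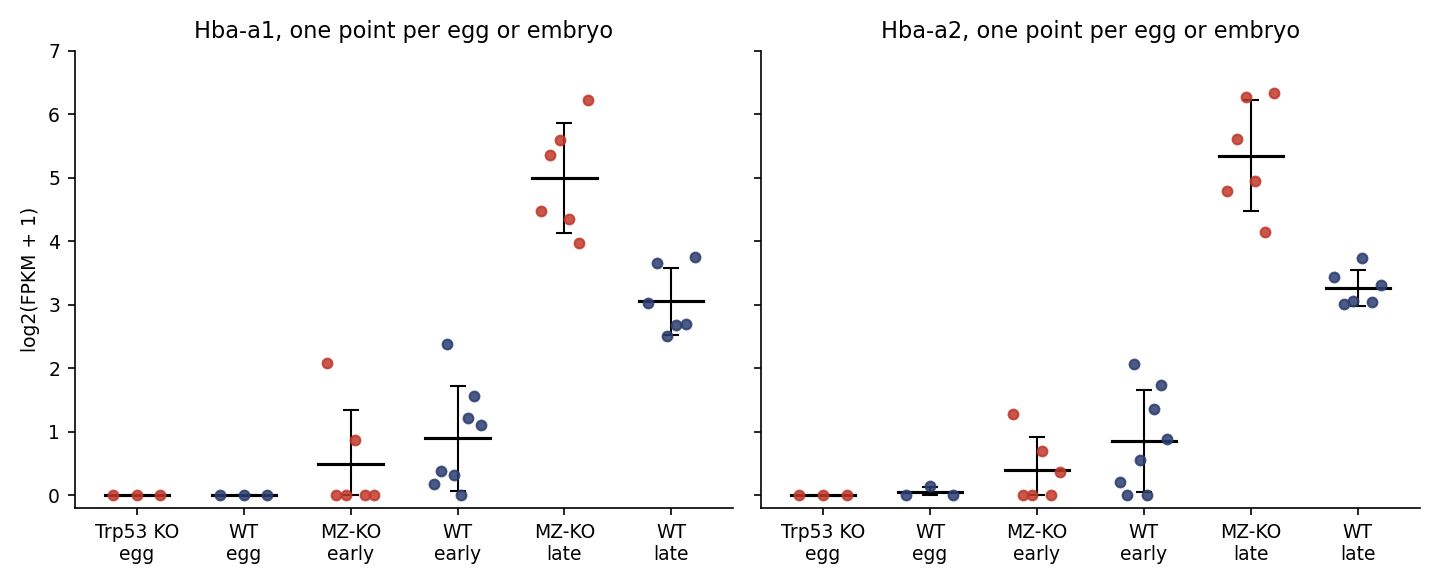
Level of Hba-a1 (left) and Hba-a2 (right) as log2(FPKM + 1) in every egg and embryo, by group, with the mean (long line) and SD (whiskers, drawn no lower than 0). Red points are groups labelled Trp53 KO or MZ-KO and blue points WT; at the late stage all 6 embryos labelled MZ-KO lie above all 6 WT embryos for both genes.

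At the late 2-cell stage the adult alpha globins were present in all 12 embryos. Hba-a1 had 14.6 FPKM at the lowest, 30.7 at the median and 73.5 at the highest in late embryos labelled MZ-KO, against 4.71, 6.33 and 12.4 in WT late embryos. Hba-a2 had 16.7, 38.8 and 79.3 FPKM in late embryos labelled MZ-KO, against 7.05, 8.18 and 12.4 in WT late embryos. The lowest embryo labelled MZ-KO was above the highest WT embryo for both genes. These values rested on 342 to 985 reads of Hba-a1 per embryo labelled MZ-KO and 86 to 267 per WT embryo, and on 373 to 1347 and 102 to 181 reads of Hba-a2 in the same groups.

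The mean of Hba-a1 was 36.04 ± 22.3 FPKM in late embryos labelled MZ-KO and 7.82 ± 3.38 in WT late embryos (SD, n = 6 each), a ratio of means of 4.61 and a log2(FPKM + 1) difference of 1.94. For Hba-a2 the means were 46.1 ± 26.5 and 8.80 ± 2.07 FPKM in the same groups, a ratio of 5.23 and a difference of 2.08. Since this contrast chose the members, no test is attached to them. For orientation, 8.21% of the 8772 genes tested had all 6 embryos labelled MZ-KO above all 6 WT embryos, and the median difference over all of them was 0.07. The authors' deposited log2 fold change was -2.02 for Hba-a1 and -2.18 for Hba-a2, in a column that names neither its groups nor its direction. It was taken to compare the late groups, with a negative sign for genes lower in WT. That choice was inferred from the late levels themselves, so the fold change is no independent check of them. In libraries of whole embryos, fewer cells with a transcript and less transcript per cell cannot be told apart.

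In WT, the late embryos stood above the early ones for both genes. Hba-a1 was 6.68 times as high in the mean of WT late embryos as in WT early embryos, with a log2(FPKM + 1) difference of 2.16, and Hba-a2 was 8.20 times as high, with a difference of 2.41. The lowest late embryo was above the highest early embryo in both cases, which held for 36.7% of the 9319 genes tested. Between late and early embryos labelled MZ-KO the differences were 4.50 for Hba-a1 and 4.96 for Hba-a2, again without overlap, as for 40.1% of 8944 genes. Because the early values were near 0 these differences depend on the pseudocount. With 0.1 they were 3.41 and 3.84 in WT and 6.89 and 7.17 in the embryos labelled MZ-KO. These contrasts, too, were used to choose the members and share embryos with the genotype comparison.

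Summed over both copies, the adult alpha globins were at 31.3 to 153 FPKM in late embryos labelled MZ-KO (median 68.6, mean 82.1 ± 48.1) and at 12.1 to 21.4 FPKM in WT late embryos (median 17.4, mean 16.6 ± 3.60). That sum lay between percentiles 90.5 and 97.6 of the genes at FPKM 1 or more in embryos labelled MZ-KO and between 75.9 and 84.5 in WT embryos. This rank sets the sum of both copies against single genes. It also depends on gene structure, since the authors' FPKM is per genomic span. The span is 955 bases for 812 of exon in Hba-a1, but 11515 for 4045 in Trp53. Early embryos had a sum of 1.07 ± 1.85 FPKM where labelled MZ-KO and 2.24 ± 2.57 in WT, and the highest early value, 7.41 in WT embryo 3, was below the lowest late value. The embryos labelled MZ-KO differed among themselves by more than the WT embryos did. The highest sum, 153 FPKM, was in embryo 6, the library with the lowest depth of its group (10.8 M reads), and the lowest, 31.3 FPKM, was in embryo 5, that with the highest (27.6 M reads). The part of depth in this spread was not tested.

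Hba-a2 was above Hba-a1 in 6 of 6 late embryos labelled MZ-KO and in 4 of 6 WT late embryos, with a mean log2 ratio of 0.36 ± 0.24 and of 0.25 ± 0.72 in those groups (SD, n = 6 each). Per kilobase of exon, in place of the genomic span that the authors' FPKM uses, the ratios were 0.41 ± 0.24 and 0.29 ± 0.72. Across embryos the copies moved together where the range was wide, with Pearson r = 0.965 over the 6 late embryos labelled MZ-KO and r = 0.959 over the 8 WT early embryos. Over the 6 WT late embryos r was -0.14, in a range of 7.05 to 12.4 FPKM for Hba-a2. These correlations describe embryos in which the copies share most of their sequence and each library's depth.

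**Figure D2:**
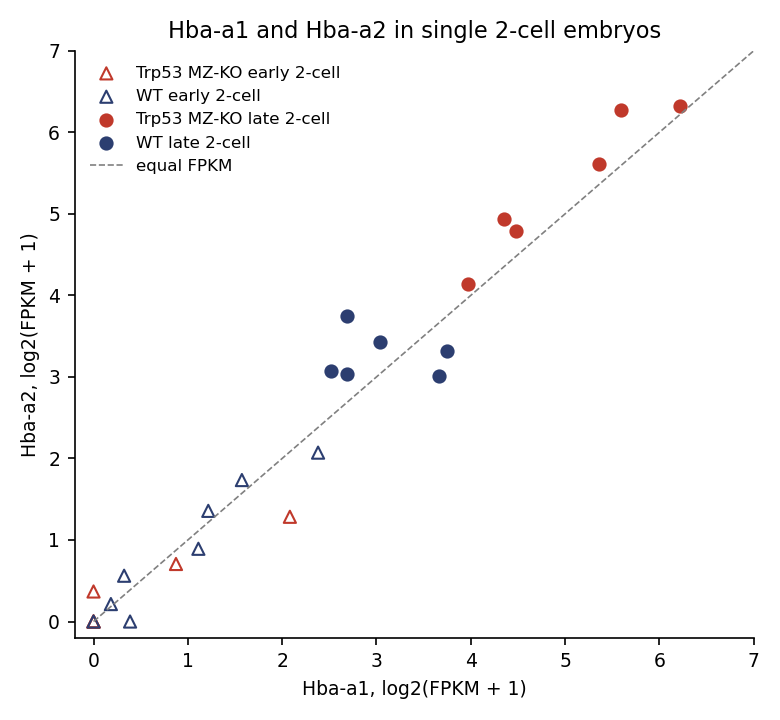
Hba-a2 against Hba-a1, both as log2(FPKM + 1), in each 2-cell embryo; filled circles are late and open triangles early embryos, red those labelled MZ-KO and blue WT, and the dashed line marks equal FPKM. The late embryos labelled MZ-KO run along the line with 6 of 6 above it, while the WT late embryos form a cloud with 4 of 6 above it.

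The other alpha-type and all beta-type members stayed at or near 0 at the late stage. Hba-x, the embryonic alpha-type gene, had reads in 5 of 6 late embryos labelled MZ-KO, with 3, 1, 4, 1 and 1 reads and a highest value of 0.126 FPKM, and in 1 of 6 WT late embryos, with 1 read and 0.032 FPKM. The groups overlapped, and no library reached FPKM 1. Hbb-bs, an adult beta gene, had 2 reads (0.056 FPKM) in 1 WT late embryo and none in the late embryos labelled MZ-KO. Hbb-bt and Hbb-y had no read in any of the 32 libraries, where 3 reads would have given between 0.0738 and 0.282 FPKM of Hbb-bt and between 0.0741 and 0.283 FPKM of Hbb-y. The authors' deposited log2 fold changes of Hba-x and Hbb-bs, again with groups inferred, were -2.64 (standard error 2.26) and 1.08 (3.12). These errors were nearly as large as the value or larger. Over all libraries 4690 reads fell on Hba-a1 and 4966 on Hba-a2, against 11 on Hba-x and 2 on Hbb-bs.

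**Figure D3:**
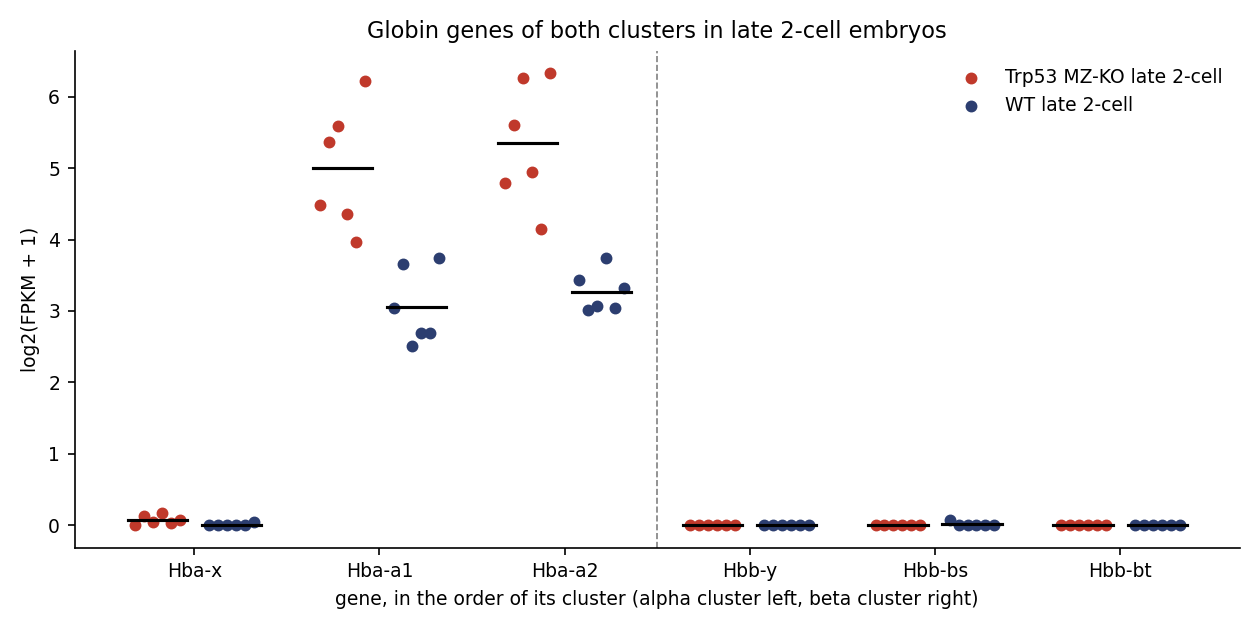
Level of the 6 globin genes as log2(FPKM + 1) in the 6 late embryos labelled MZ-KO (red) and the 6 WT late embryos (blue), in the order of the genes along each cluster; lines are means. Hba-a1 and Hba-a2 are measured in every late embryo, whereas Hba-x and the beta-type genes lie at or just above 0.

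Of 12 further globin genes listed, 10 were in the table. Hbb-bh0, Hbb-bh1, Hbb-bh2 and Hbb-bh3 of the beta cluster and the cytoglobin gene Cygb were at 0 in every library. The neuroglobin gene Ngb and the androglobin gene Adgb reached no more than 0.465 and 0.051 FPKM, and the myoglobin gene Mb, which overlaps other annotated genes, no more than 0.363. The theta globin gene Hbq1a was already measured in eggs, at 1.02 ± 0.904 FPKM in those labelled Trp53 KO and 1.45 ± 1.34 in WT (SD, n = 3 each). In embryos labelled MZ-KO it was higher in early embryos, at 2.90 ± 1.40 FPKM (SD, n = 6), than in eggs labelled Trp53 KO (log2 difference 0.97, limma adjusted p = 0.0365), where 49.2% of genes were called. It fell to 0.568 ± 0.963 FPKM in late embryos labelled MZ-KO, against 2.90 ± 1.40 in early ones (SD, n = 6 each, log2 difference -1.41, limma adjusted p = 8.2e-04), where 81.7% of genes were called. All 6 late embryos were below the early mean, but the ranges overlapped (highest late 2.48, lowest early 1.55 FPKM). Hbq1a reached FPKM 1 in all 6 early embryos labelled MZ-KO, but in only 1 egg labelled Trp53 KO and 1 late embryo labelled MZ-KO. It thus passed both filters through the early embryos, where it was higher, and these 2 p-values are no independent measure of the changes. In WT it was at 0.0702 ± 0.0870 FPKM in late embryos (n = 6) and 1.39 ± 1.21 in early embryos (n = 8), without overlap. It did not pass the filter in that comparison, and with no filter the difference was -1.02 (limma adjusted p = 0.00591). Whether these falls differ between the genotype labels was not tested. Between the early groups its difference of 0.78 did not pass the test (2.90 ± 1.40 FPKM in embryos labelled MZ-KO, 1.39 ± 1.21 in WT, adjusted p = 0.155). Hbq1b, the second theta globin gene, lies between Hba-a1 and Hba-a2 and did not pass the filter in any comparison. It ran from 0 to 2.45 FPKM in late embryos labelled MZ-KO (mean 0.715 ± 1.10) and from 0 to 1.07 in WT late embryos (mean 0.384 ± 0.482), with overlap (SD, n = 6 each). In early embryos it averaged 0.532 ± 0.488 FPKM in those labelled MZ-KO (n = 6) and 0.265 ± 0.216 in WT (n = 8). How reads that fit both theta genes were counted is not given in the sources used here.

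The genes next to the clusters did not all change in the same direction. Of 6 protein-coding genes within 100 kb of the alpha cluster, 1 was tested between the late groups and none was called by limma (0 at an unadjusted p below 0.05), where 31.9% of all genes tested were. That gene, Snrnp25, encodes a protein of the minor spliceosome and was at 54.3 ± 20.04 FPKM in late embryos labelled MZ-KO and 33.7 ± 16.5 in WT late embryos (SD, n = 6 each, log2 difference 0.70, limma adjusted p = 0.157). In WT, Snrnp25 was higher at the late than at the early stage by 3.30 on the log2 scale (adjusted p = 2.0e-07), and Rhbdf1, for an inactive rhomboid protease, fell by 2.54 (adjusted p = 9.4e-08), in a comparison where 85% of genes were called. Rhbdf1 was at most 0.534 FPKM in WT late embryos and passed the filter only through the early ones. Its p-value is therefore no independent measure of the fall. Of 13 genes beside the beta cluster, all with olfactory receptor symbols, 12 were at 0 in every late embryo. Olfr66 was at 2.25 ± 0.949 FPKM in late embryos labelled MZ-KO and 0.250 ± 0.142 in WT late embryos (difference 1.34, limma adjusted p = 2.5e-04). The groups did not overlap, as for 8.21% of all genes tested. No WT late embryo was above 0.477 FPKM, so Olfr66 passed the filter only through the embryos labelled MZ-KO. Its p-value is therefore no independent measure of the difference. Olfr66 overlaps the pseudogene Dnajc19-ps, and without strand its reads cannot be assigned to either gene.

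Most of the 15 erythroid transcription factors listed were low in late embryos, the exceptions being Gata1, Nfe2 and Ldb1. Of the 15, 12 averaged below 0.5 FPKM in late embryos labelled MZ-KO and 12 in WT late embryos, with Tal1 and Lyl1 at 0 in both. Their summed FPKM was 7.93 to 13.99 in late embryos labelled MZ-KO and 4.83 to 16.03 in WT late embryos. These values are per genomic span, which lowers genes with long introns, so they do not compare directly between genes. The erythroid factor Klf1 averaged 0.184 ± 0.320 FPKM in late embryos labelled MZ-KO and 0.0775 ± 0.121 in WT late embryos (SD, n = 6 each).

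Gata1, the main erythroid GATA factor, rose in WT late embryos to 6.97 ± 3.15 FPKM (n = 6), against 0.172 ± 0.108 in WT early embryos (n = 8), a log2 difference of 2.67 (limma adjusted p = 6.8e-09), in a comparison where 85% of genes were called. Ldb1, a cofactor that joins GATA1 and TAL1 complexes, fell there by 1.18 (adjusted p = 2.8e-05) and overlaps Pprc1. It averaged 1.43 ± 0.677 FPKM in late embryos labelled MZ-KO and 0.769 ± 0.595 in WT late embryos (SD, n = 6 each). Between late and early embryos labelled MZ-KO, where 81.7% of genes were called, Gata1 rose by 2.24 (adjusted p = 9.0e-08), Nfe2 by 1.88 (adjusted p = 1.6e-08), and Ldb1 fell by 0.54 (adjusted p = 0.0365). Gata1 was at most 0.403 FPKM in WT early embryos and 0.194 FPKM in early embryos labelled MZ-KO. It passed the filter only through the late embryos, so its p-values between the stages are no independent measure of the rise. Nfe2 averaged below 0.5 FPKM in early embryos labelled MZ-KO, so it passed the filter mainly through the late embryos. The p-value of its rise is therefore no independent measure either. Ldb1 reached FPKM 1 in every early embryo but not in every late one. Between the late groups Gata1 was at 4.61 ± 2.21 FPKM in embryos labelled MZ-KO and 6.97 ± 3.15 in WT (difference -0.48, adjusted p = 0.241). Nfe2, an erythroid and megakaryocyte factor, was at 2.96 ± 0.879 and 1.88 ± 1.35 FPKM in the same groups (difference 0.55, adjusted p = 0.142). These were the 2 factors tested between the late groups, and none was called by limma (0 at an unadjusted p below 0.05), where 31.9% of all genes were.

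The erythroid haem enzyme Alas2 averaged 0.045 FPKM in late embryos labelled MZ-KO and 0.002 in WT late embryos, and the anion exchanger Slc4a1 0.0803 and 0 (n = 6 each). The red cell list of 20 genes, 19 of them in the table, summed to 19.6 to 38.99 FPKM in late embryos labelled MZ-KO and 32.2 to 50.3 in WT late embryos, of which Tfrc, described with the haem genes, made up most.

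Most tested genes of haem synthesis changed between the stages, as did most genes in general. In WT late against WT early embryos 7 of 13 haem synthesis genes were tested, of which 6 rose and 1 fell, where 85% of all genes tested were called. Clpx, a mitochondrial chaperone that acts on the first enzyme of the pathway, rose by 2.62 on the log2 scale (9.19 ± 2.11 FPKM in late, 0.631 ± 0.0739 in early WT embryos, adjusted p = 2.2e-11). Ppox, the protoporphyrinogen oxidase, rose by 1.76 (adjusted p = 1.3e-05) and overlaps B4galt3. Alas1, the housekeeping first enzyme of the pathway, rose by 0.95 (2.35 ± 0.603 and 0.728 ± 0.212 FPKM, adjusted p = 2.2e-06), after a fall of 1.45 on the log2 scale between WT early embryos and WT eggs (adjusted p = 1.4e-05). The member that fell was Tmem14c, a mitochondrial porphyrin transporter (8.49 ± 3.28 FPKM in late, 40.5 ± 14.6 in early WT embryos, difference -2.14, adjusted p = 8.4e-07). Clpx and Alas1 were below FPKM 1 in every WT early embryo (highest 0.75 and 0.999 FPKM). They passed the filter only through the late embryos, or for the earlier fall of Alas1 through the eggs. Ppox averaged 0.947 FPKM in WT early embryos and was at least 2.48 FPKM in every WT late embryo, so the late embryos alone met the filter. The p-values of Clpx, Alas1 and Ppox are therefore no independent measure of these changes. The median difference of the 7 genes was 1.48, and that of all genes tested 0.26.

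Between late embryos labelled MZ-KO and WT late embryos, 1 of 8 tested haem synthesis genes was called, where 31.9% of all genes tested were, with a median difference of -0.02 over the 8 and 0.07 over all genes tested. The called gene was Tmem14c, at 16.2 ± 4.32 FPKM in embryos labelled MZ-KO and 8.49 ± 3.28 in WT (difference 0.90, adjusted p = 0.0148), with overlap between the lowest embryo labelled MZ-KO (11.9) and the highest WT embryo (12.1). Flvcr1, the haem exporter of the plasma membrane, was also higher, at 2.52 ± 0.558 and 0.951 ± 0.641 FPKM (difference 0.89, adjusted p = 0.00493, ranges overlapping), and was the 1 gene called of 2 tested for haem breakdown and export. Part of the WT late embryos were below FPKM 1 of Flvcr1 (lowest 0.475). It passed the filter through the embryos labelled MZ-KO (lowest 1.755). Tfrc, the transferrin receptor that brings iron into cells, was the only tested gene of the red cell list of 20 and was lower, at 23.2 ± 6.49 FPKM in embryos labelled MZ-KO and 40.1 ± 7.39 in WT (difference -0.79, adjusted p = 0.00826, ranges overlapping at 33.8 and 30.06 FPKM). The enzymes Alas1 (-0.03, adjusted p = 0.925) and Ppox (0.46, adjusted p = 0.185) did not pass the test. At the early stage 3 haem synthesis genes were tested between the genotype labels, with 1 each of the haem breakdown, red cell and erythroid factor lists. In eggs 4 haem synthesis genes were tested, with 1 of each other list. None was called at either stage, with 3.28% and 0.333% of all genes called. So few tested genes cannot show whether the lists differ from all genes. Of them, 2 had an unadjusted p below 0.05 (limma) at the early stage, Tmem14c and Slc25a38, and 1 in eggs, Urod, all of the haem synthesis list.

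**Figure D4:**
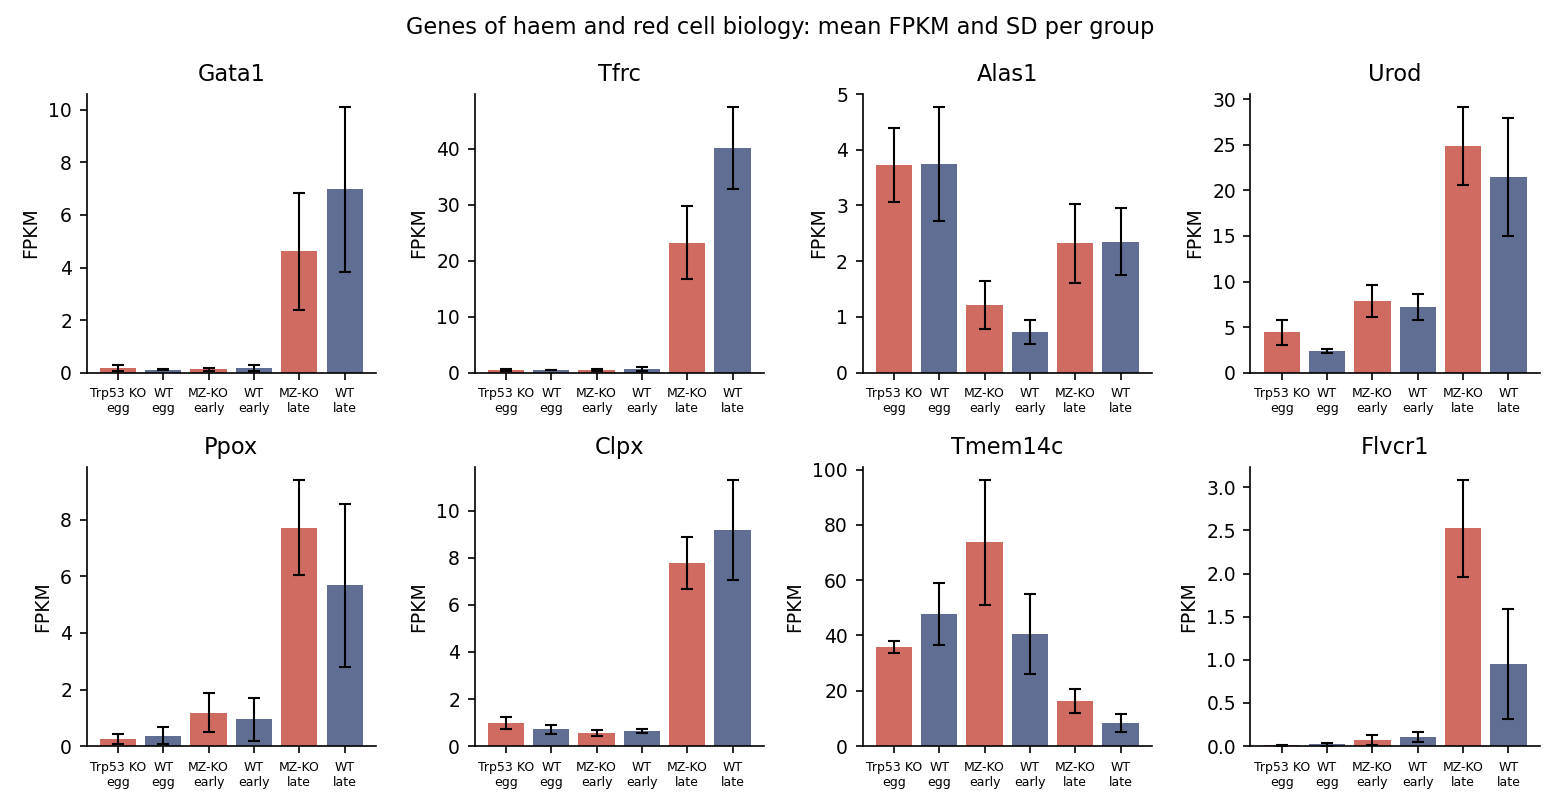
Mean FPKM (bars, from 0) and SD (whiskers, drawn no lower than 0) of Gata1, Tfrc and 6 genes of haem synthesis or export in the 6 groups; red bars are groups labelled Trp53 KO or MZ-KO and blue bars WT. Gata1, Tfrc, Ppox and Clpx are high at the late stage in both arms, while Tfrc is lower and Tmem14c and Flvcr1 are higher in late embryos labelled MZ-KO than in WT late embryos.

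Markers of blood and of cells around the egg were read beside the alpha globins. Of 10 erythroid markers 9 were in the table, and their summed FPKM was 3.40 to 8.86 in late embryos labelled MZ-KO, where Rhag and Epor were at 0, and 2.63 to 12.2 in WT late embryos, where Slc4a1 was at 0 as well. Gata1 made up most of both sums. The 8 leukocyte markers summed to 3.40 to 11.6 FPKM in late embryos labelled MZ-KO and 2.14 to 5.57 in WT late embryos, with the leukocyte antigen Ptprc and the granulocyte genes S100a8 and S100a9 at 0 in both. Of the 2 leukocyte markers tested, 1 was called higher, where 31.9% of all genes were called. It was Cd52, which overlaps Crybg2 and was at 2.73 ± 0.782 FPKM in embryos labelled MZ-KO and 1.41 ± 0.390 in WT. The 4 platelet markers summed to at most 0.241 FPKM in late embryos labelled MZ-KO and 0.388 in WT late embryos, with Pf4, Ppbp and Gp9 at 0, and the 8 cumulus and granulosa cell markers to at most 0.804 and 0.321 FPKM. As given above, Hbb-bs, Hbb-bt and Hbb-y were at 0 in all late embryos labelled MZ-KO. In WT late embryos Hbb-bs had 2 reads in 1 embryo. The part of blood or neighbouring cells in the alpha globin values was not tested.

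The genes whose level followed the summed adult alpha globins most closely were ranked by Pearson r, as a description in which all points share their group and depth. Genes with clone-based symbols were ranked but not named. Over the 12 late embryos the 5 highest named genes of 11828 ranked were Rap1a (r = 0.971), Tes3-ps (0.971), Msmo1 (0.956), Dynlt1-ps1 (0.953) and Dctpp1 (0.952), at ranks 1, 2, 3, 6 and 7, against a median r of 0.15 over all genes. Dynlt1-ps1, a processed pseudogene, was at 147 ± 72.3 FPKM in late embryos labelled MZ-KO and 55.0 ± 15.1 in WT late embryos, and Msmo1, a sterol synthesis enzyme, at 1.95 ± 1.01 and 0.222 ± 0.199 FPKM. Within the 6 late embryos labelled MZ-KO, r ran from 0.829 (Dctpp1) to 0.968 (Tes3-ps), and within the 6 WT late embryos from 0.287 (Msmo1) to 0.832 (Dctpp1). Rap1a and Tes3-ps overlap other annotated genes. Over all 32 libraries the top 5 of 11918 were Pla2g16 (0.952), Rpl36-ps8 (0.949), Tprkb (0.948), Commd7 (0.946) and Denr (0.946), with a median of 0.32. For these genes r ran from 0.0004 (Pla2g16) to 0.901 (Rpl36-ps8) within the late embryos labelled MZ-KO. Within the WT late embryos r ran from -0.71 (Pla2g16) to 0.57 (Denr), with Tprkb at -0.68 and Rpl36-ps8 at 0.094. For Pla2g16, Tprkb and Rpl36-ps8 the likeness over all libraries thus did not hold within the WT late embryos. No gene was named in both rankings.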

How the data were processed

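RNA was measured in 32 single eggs or embryos. The authors' deposited table gives FPKM per gene and library, and per the submitters' processing notes TopHat2, DESeq, DESeq2 and the build mm10 were used, without versions. The deposited table also holds the authors' log2 fold change with its standard error. FPKM times genomic span came out as whole reads, so the authors' length was taken as the span. Genes with long introns thus get lower values, and levels of different genes or summed lists do not compare directly. Columns name only the group, so the libraries carry a number by column order, which pairs nothing. Columns headed with transposed letters were assigned to the late MZ-KO group because they gave the authors' mean within 3.3e-06. No per-sample column was left unassigned.

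A gene was tested where it reached FPKM 1 in as many libraries as the smaller group holds, or more. A gene that met this only through 1 group was tested because it was high there. Its p-value is then no independent measure of the difference. Tests were run on log2(FPKM + 1) with limma 3.58.1 (R 4.3.3, trend and robust moderation), each comparison in its own groups, with Benjamini-Hochberg adjustment over all genes tested and a threshold of 0.05. Results are on the log2(FPKM + 1) scale, which understates changes of low genes. Alternatives were a pseudocount of 0.1, no filter, median-ratio scaling and leaving out each library. Read floors (3 reads) cover counting error only. Annotation was GENCODE M21, in which 54409 gene identifiers were found, and sequences came from GENCODE and RefSeq. Python 3.11.15 was used for the rest.

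The members and lists were chosen with earlier results of these data known. Named genes were all members and other globins, the up to 4 called genes with the largest difference per list in the late MZ-KO against WT and WT late against early fits, fixed erythroid genes, and the top 5 by likeness, clone-based symbols left out. Nfe2, Cd52, Slc25a38 and Urod were chosen after their values were seen. The globins Hbb-b1 and Hbb-b2 and the gene Ahsp were not analysed here. Values of some other listed genes are not reported here.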

Additional observations from a re-analysis of the deposited data

Results flagged for a closer look

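In 2 groups a single library stood far from the others by the ratio of its gap to the range of its group. Hba-x was at 0.032 FPKM (1 read) in 1 WT late 2-cell embryo and at 0 in the other 5. Hbb-bs was at 0.056 FPKM (2 reads) in 1 WT late 2-cell embryo and at 0 in the other 5. In both cases fewer than 3 reads lie behind the value. In all, 11 groups of 4 to 10 libraries were examined, and groups in which all libraries were equal were left out. Where a single library is above 0 the gap equals the range, so any read there is marked. Both marks are of this kind and carry no further weight.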

How the results depend on the processing

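The late difference between embryos labelled MZ-KO and WT embryos stayed between 1.70 and 2.15 for Hba-a1 and between 1.88 and 2.32 for Hba-a2 when each library was left out, and under median-ratio scaling it was 1.75 and 1.89. That scaling moved the median of all genes in this comparison to -0.08, against 0.07 unscaled, in WT early embryos against eggs to -0.03, against 0.15, and in late against early embryos labelled MZ-KO to 0.11, against 0.39. The number of called genes moved in these cases. In eggs it was 22, with a pseudocount of 0.1 8, with no filter 6, and 6 to 38 when each of the 6 libraries was left out. Between the early groups it was 252, with no filter 56, and 105 to 351 when each library was left out, with 131, 136, 130 and 105 without early embryos labelled MZ-KO 2, 3, 5 and 6. The egg count was 38 without the egg labelled Trp53 KO 1, 8 and 12 without those labelled 2 and 3, and 6, 7 and 7 without WT eggs 1, 2 and 3. With no filter 15824 genes were called between WT late and early embryos, against 7923, and 14095 between late and early embryos labelled MZ-KO, against 7303, since more genes were tested. Leaving out single libraries turned the sign of 2 uncalled late differences, those of Alas1 (-0.11 to 0.07) and Trp53 (-0.28 to 0.19), and with a pseudocount of 0.1 Trp53 was at 0.041. Ppox passed the late test (0.65, limma adjusted p = 0.0352, range 0.0352 to 0.365 over its alternatives) without WT late embryo 1, and Snrnp25 (0.96, adjusted p = 0.0333, range 0.0333 to 0.329) without late embryo labelled MZ-KO 5. The cause was not tested. No paired analysis was possible because the columns carry no replicate number. Values of a few reads, as for Hba-x and Hbb-bs, and the split between Hba-a1 and Hba-a2 are limited by depth and by shared sequence.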
